A study of Mus musculus with 8 samples.

Results

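Dido1 (death inducer-obliterator 1) and its paralog Phf3 (PHD finger protein 3) were followed in pre-B cells and in LSK progenitors of Dido1∆E16 mice and their controls. Both were chosen by name. They are 2 of the 26069 genes with a symbol in the pre-B files, with 11 of the 63753 transcripts listed in all libraries (8 of Dido1 and 3 of Phf3) and 40 of 257459 distinct exons. In LSK cells, 5 of 27352 and 20 of 57739 accessible regions called with MACS2 carried either symbol in WT replicates 1 and 2. In the Dido1∆E16 replicates they were 9 of 13208 and 13 of 16329.

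All mice were young adult C57BL/6 animals and carried R26R-EYFP and iCre-Vav1, a Cre recombinase that is active in blood cells. Dido1∆E16 mice were Dido1 flE16/∆E16, with the last exon, exon 16, deleted on one allele and flanked by loxP sites on the other. Their WT littermates were Dido1 flE16/+ and carried the same Cre and a floxed exon 16, so that they too can lose 1 copy of exon 16 in blood cells. RNA-seq was made from sorted bone marrow pre-B cells, with a pool of mice for each of 2 WT and 2 Dido1∆E16 libraries. ATAC-seq, in which the Tn5 transposase cuts accessible DNA, was made from LSK cells, the lineage-negative Sca-1+ c-Kit+ stem and progenitor cells, with 2 libraries per genotype.

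DIDO proteins and PHF3 form a family that carries a PHD finger, a zinc-binding fold that in DIDO proteins reads methylated lysine 4 of histone H3, together with a domain related to the elongation factor TFIIS and a SPOC domain. The SPOC domain of PHF3 binds the phosphorylated C-terminal tail of RNA polymerase II. Dido1 makes a short protein (DIDO1), which has the PHD finger but not the TFIIS-like domain, a longer one (DIDO2), and the longest (DIDO3), whose C terminus is encoded by exon 16.

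The ends of these isoforms differ at exon 15, which spans chr2:180669391-180669586 on the minus strand of GRCm38. In transcript uc008ojq.2, exon 15 is spliced to exon 16 at chr2:180657963-180662583, where 3242 coding bases precede the stop codon. In the isoforms that lack exon 16, exon 15 continues into its intron as an exon of 3651 bases, the exon 15 extension, and a stop codon ends 26 bases past exon 15. A further group ends in an extension of exon 6 (3075 bases). The sequences below, from the RefSeq copy of GRCm38.p6 and read on the coding strand, show both choices, with exon bases in capitals.
Exon 15 end at chr2:180669365-180669420, read on to the stop codon tga: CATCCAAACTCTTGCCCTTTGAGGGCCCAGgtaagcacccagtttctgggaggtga
Exon 16 start at chr2:180662544-180662603, after the last bases of its intron: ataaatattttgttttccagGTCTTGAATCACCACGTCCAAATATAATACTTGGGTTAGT

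The pre-B files give TPM, an abundance per unit of length scaled to the same total in each library, for every transcript. For every exon they give coverage, the mean depth over its bases, which was brought to the TPM scale with 1 factor per library (scaled coverage). They hold no read counts, so the counting error behind a value is unknown. The libraries covered annotated transcripts with 1.58 and 1.12 gigabases in WT replicates 1 and 2, and 1.64 and 1.17 in those of Dido1∆E16 mice. Lists of 4 values give WT replicates 1 and 2, then Dido1∆E16 replicates 1 and 2. Polr2f, a polymerase subunit that every cell needs, is listed at 0 TPM in 2 of the 4 libraries, replicate 2 of either genotype. Values of 0 are therefore given only as listed. The 11 pre-B markers reported here were present, with summed TPM from 10162 to 12872, most of it from Cd79a and Cd79b. Among them 4 markers of earlier pro-B and large pre-B cells were higher in both Dido1∆E16 libraries at an unadjusted p under 0.05. Dido1 was too, and of all 11830 genes tested 1023 were higher at such a p. The surrogate light chain genes Vpreb1 (108, 40.9, 1222 and 738 TPM), Vpreb2 (27.1, 8.76, 382 and 168 TPM) and Igll1 (112, 34.4, 424 and 252 TPM) differed by log2 fold changes of 3.81, 3.94 and 2.37. Dntt, which encodes terminal transferase, stood at 48.7, 7.18, 191 and 96.0 TPM (log2 fold change 2.76). The other markers had log2 fold changes from -0.27 (Rag2) to 0.20 (Il7r), and none of the 11 was called. Markers of neutrophils and monocytes summed to 244, 2211, 1069 and 9647 TPM, and erythroid markers to 296, 876, 641 and 8303. T and NK cell markers, of which 4 of 6 were listed at 0 throughout, summed to 0, 1.25, 0.967 and 18.6. Plasma cell markers summed to 244, 280, 224 and 225. In bulk RNA, fewer cells of a type and less RNA per cell cannot be told apart. Dido1 reached 81.6 TPM in Dido1∆E16 replicate 1 and 87.2 TPM in replicate 2. This replicate 2 held the highest sums of neutrophil and monocyte, erythroid, and T and NK cell markers. What part such cells, or the share of earlier B cell stages, had in the differences was not tested.

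The targeted exon was nearly absent from Dido1∆E16 pre-B cells. Scaled coverage of exon 16 was 24.6 and 21.8 in the WT libraries. It was 0.295 and 0.0843 in those of Dido1∆E16 mice. The groups were far apart, and the Dido1∆E16 mean was 0.818% of the WT mean. The limma log2 fold change on log2(coverage + 1) was -4.35 (SE 0.56), with an unadjusted p of 4.3e-04 and an adjusted p of 0.212 over 127380 exons. It therefore did not pass the call used here, an adjusted p under 0.05 and a log2 fold change of 0.6 or more either way. On coverage as deposited, without scaling to TPM, the same exon was called, with a log2 fold change of -3.60 and an adjusted p of 0.0174.

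Within each library, exon 16 was set against the other 15 exons of uc008ojq.2. It reached 46.6% and 39.4% of their mean coverage in the WT libraries. In those of Dido1∆E16 mice it reached 0.233% and 0.0601%. The exact two-sided permutation test over libraries gave p = 0.333, the smallest that 2 libraries against 2 allow.

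Upstream of the deletion the gene was more strongly covered in Dido1∆E16 cells, not less. The mean scaled coverage of exons 2 to 14 was 55.4 and 56.6 in WT, against 142 and 156 in Dido1∆E16 pre-B cells. This is a ratio of the means of 2.66 (exact permutation p = 0.333). Coverage of an exon was summed over the transcripts that list it. Taking only the transcript with the highest value instead gave means of 52.3 and 111, a ratio of 2.13. Each of these 13 exons was higher in both Dido1∆E16 libraries than in either WT library, by 2.27-fold (exon 6) to 3.18-fold (exon 3). Unadjusted p-values from limma ran from 3.0e-04 to 0.0067 and adjusted values from 0.193 to 0.382, so that none was called. Within each library exons 10 and 12 were covered more strongly than any of exons 2 to 9, as the plot of coverage by exon shows.

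**Figure D1:**
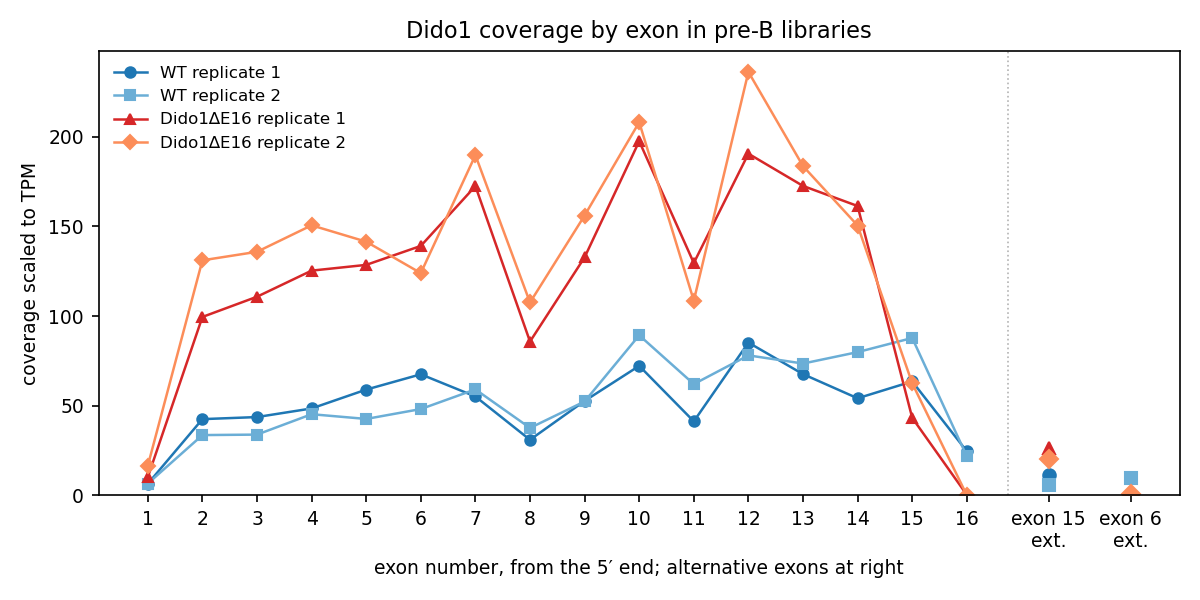
Coverage of the 16 exons of Dido1 transcript uc008ojq.2, numbered from the 5′ end, in the 4 pre-B libraries, with 2 alternative last exons (extensions of exons 15 and 6) at the right of the dotted line. The vertical axis is coverage scaled to TPM, each point is 1 library, and lines only join the exons of a library. Both Dido1∆E16 libraries lie above both WT libraries at exons 2 to 14, and at or near 0 at exon 16.

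Over all 22 distinct exons of Dido1, 18 reached a mean of at least 1 and were tested. Of these, 15 were higher in both Dido1∆E16 libraries, 2 were lower (exons 15 and 16) and 1 overlapped. Among all exons tested, 34.1% were higher in both Dido1∆E16 libraries. With an unadjusted p under 0.05, 14 Dido1 exons were higher, beside 9.73% of all exons, and 1 was lower. None was called, beside 0.0259% of all exons. The median log2 fold change was 1.35 for Dido1 exons and 0.25 for all exons tested. Centring each library on its median, which took the median of all exons to -0.03, left a Dido1 median of 1.06. The 3 Dido1 exons listed at 0 in all libraries include the upstream first exon.

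Exon 15, like exon 16, had lower values in Dido1∆E16 cells, unlike exons 2 to 14. Its coverage as a separate exon was 63.5, 87.8, 43.2 and 62.5, where the highest Dido1∆E16 value lay just under the lowest WT value (log2 fold change -0.51, SE 0.31, adjusted p = 0.551). The same bases also open the exon 15 extension, which is listed as a longer exon, so coverage of the extension is not part of these values. The extension had a coverage of 11.2, 5.68, 26.6 and 20.4 (log2 fold change 1.43, SE 0.48, adjusted p = 0.415). Relative to exons 2 to 14 of the same library, however, it stood at 20.2% and 10.05% in WT cells, a range that overlapped the 18.7% and 13.1% of Dido1∆E16 cells (exact permutation p = 1).

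Exon 1 of the main transcripts, at chr2:180701961-180702102, was thinly covered throughout (GENCODE vM21 gives it a more upstream start). Its scaled coverage was 6.44, 6.56, 10.1 and 16.5, higher in both Dido1∆E16 libraries (log2 fold change 0.90, SE 0.49, adjusted p = 0.521). Relative to exons 2 to 14 it stood at 11.6% in both WT libraries, above the 7.14% and 10.6% of Dido1∆E16 cells (exact permutation p = 0.333), but with the highest coverage per exon in place of the sum these ranges overlapped.

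The isoform to which most of the signal was assigned differed between genotypes. The DIDO3-type transcript uc008ojq.2 held 35.7 and 35.05 TPM in WT, or 80.7% and 76.1% of the TPM of Dido1. In Dido1∆E16 cells it held 14.9 and 19.4 TPM, or 18.3% and 22.3%. Transcripts that end in the exon 15 extension, as the DIDO2 type does, took 19.3% and 7.56% in WT and 79.9% and 77.3% in Dido1∆E16 cells. The WT shares include uc008ojr.2, which lacks exons 1 to 6. The short type that ends in the exon 6 extension took 0%, 16.3%, 1.87% and 0.462%, so that its ranges overlapped. For the first 2 shares the groups did not overlap, and the exact permutation test gave its smallest p, 0.333.

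In Dido1∆E16 cells all of the DIDO2-type TPM came from uc008ojs.2, which stood at 8.44, 1.01, 65.2 and 67.4 TPM. Its 2 WT values differed more from each other than its 2 Dido1∆E16 values, and the log2 fold change of 3.95 had an SE of 0.86 (unadjusted p = 0.0131, adjusted p = 0.385). For uc008ojq.2 the log2 fold change was -1.01 (SE 0.21, unadjusted p = 0.0108, adjusted p = 0.359). The exon 6 type was listed through uc008oju.2 alone, at 0, 7.50, 1.53 and 0.403 TPM (adjusted p = 0.897). Transcript uc008ojr.2 ends as the DIDO2 type does but lacks its first exons. It was listed at 0.115 and 2.47 TPM in WT and at 0 in both Dido1∆E16 libraries, under the filter. The other 4 Dido1 transcripts were listed at 0 in all libraries. Of the 6 transcripts of both genes that were tested, none was called and 2 had an unadjusted p under 0.05, against 0.153% and 9.2% of all transcripts.

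These shares depend on how reads were divided. The coverage of a transcript in these files is the mean over its exons weighted by length, and exon 16 makes up 4621 of the 8476 exonic bases of uc008ojq.2. In Dido1∆E16 cells that transcript kept 14.9 and 19.4 TPM although its coverage of exon 16 was near 0. The exon 15 extension likewise makes up 3651 of the 7310 bases of uc008ojs.2, and it was covered at no more than 20.2% of exons 2 to 14 in any library. In Dido1∆E16 cells most of the coverage behind either TPM value therefore lay on exons upstream of both ends.

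Summed over transcripts, Dido1 reached 44.3 and 46.0 TPM in WT and 81.6 and 87.2 TPM in Dido1∆E16 pre-B cells. The groups lay apart by more than the spread within either, with a ratio of 1.87 and means of 45.1 ± 1.25 and 84.4 ± 3.95 (SD, n = 2). The log2 fold change was 0.89 (SE 0.13, 95% confidence interval 0.53 to 1.24), with an unadjusted p of 0.0021, at rank 126 of 11830 genes. The adjusted p was 0.189, and Dido1 was not called. Among all genes 0.0507% were called and 11.7% had an unadjusted p under 0.05.

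Phf3, at chr1:30802342-30873872 on the minus strand, differed little. Its gene sums were 65.0 and 56.2 TPM in WT and 62.7 and 72.5 TPM in Dido1∆E16 cells. The ranges overlapped, and the log2 fold change of 0.16 (SE 0.16, adjusted p = 0.748) had a 95% confidence interval from -0.28 to 0.59. This interval leaves room for a change of moderate size in either direction. By gene sums, Dido1 was lower than Phf3 in both WT libraries, at 0.681 and 0.819 of its TPM. It was higher in both Dido1∆E16 libraries, at 1.30 and 1.203 (exact permutation p = 0.333). The order in WT depends on the measure, since by coverage of exons 2 to 14 Dido1 stood at 1.15 and 1.33 times Phf3 there.

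**Figure D2:**
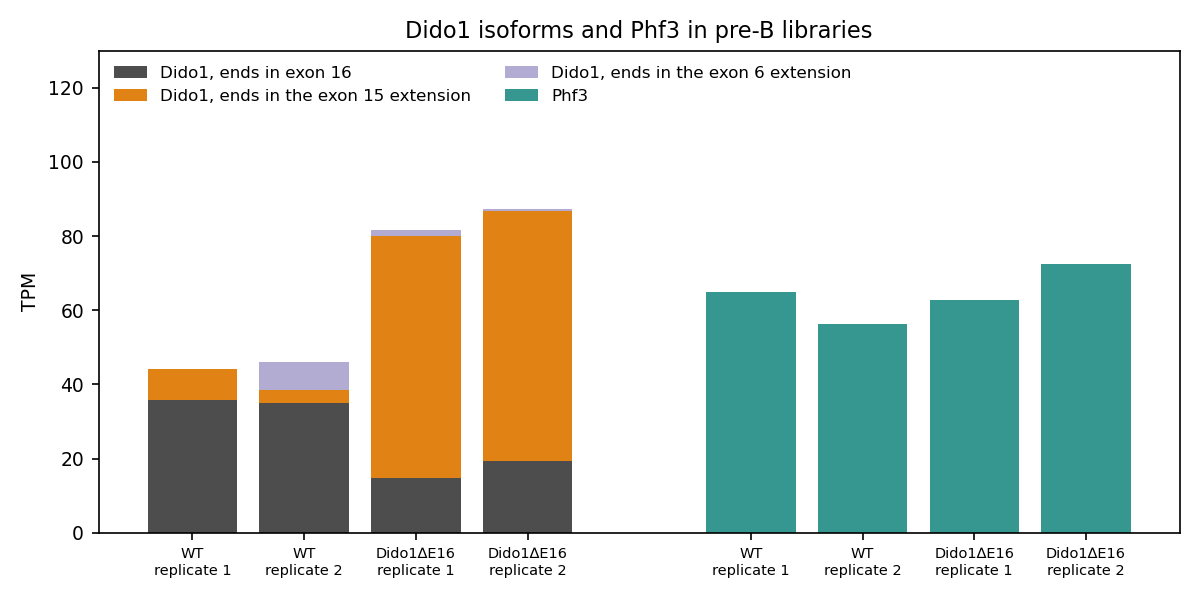
TPM of Dido1, stacked by the last exon of its transcripts, and of Phf3 (all transcripts summed) in each of the 4 pre-B libraries. Bars start at 0 and each is 1 library, without error bars. Dido1 totals are 44.3 and 46.0 TPM in WT and 81.6 and 87.2 TPM in Dido1∆E16 cells, while Phf3 stays between 56.2 and 72.5 TPM.

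One full-length transcript, uc007ane.1 with 15 exons, held 91.2% to 96.5% of the TPM of Phf3. Its values were 62.7, 51.7, 57.2 and 69.2 TPM, overlapping between genotypes (log2 fold change 0.14, SE 0.18, adjusted p = 0.817). The shorter uc007anf.1 was listed at 1.72, 2.37, 2.39 and 0 TPM (adjusted p = 0.783). The shorter uc007ang.1 was listed at 0.579, 2.11, 3.15 and 3.32 TPM (log2 fold change 0.93, SE 0.55, adjusted p = 0.720). Neither short form exceeded 3.32 TPM in any library.

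All 18 distinct exons of Phf3 were tested. Both Dido1∆E16 libraries were higher at 10 of them (55.6%, beside 34.1% of all exons tested), none was lower and 8 overlapped. Only 2 exons, 5 and 10, were higher at an unadjusted p under 0.05 (11.1%, beside 9.73% of all exons). None was called (smallest adjusted p 0.400). The median log2 fold change of 0.35 lay close to the 0.25 of all exons, and centring on the median of the library reduced it to 0.06. The last exon, exon 15, which holds 3601 bases, had a coverage of 86.4, 60.6, 66.1 and 74.0 (log2 fold change -0.05). Over exons 2 to 14, Dido1 was covered 1.15 and 1.33 times as strongly as Phf3 in WT and 2.58 and 2.19 times as strongly in Dido1∆E16 cells.

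**Figure D3:**
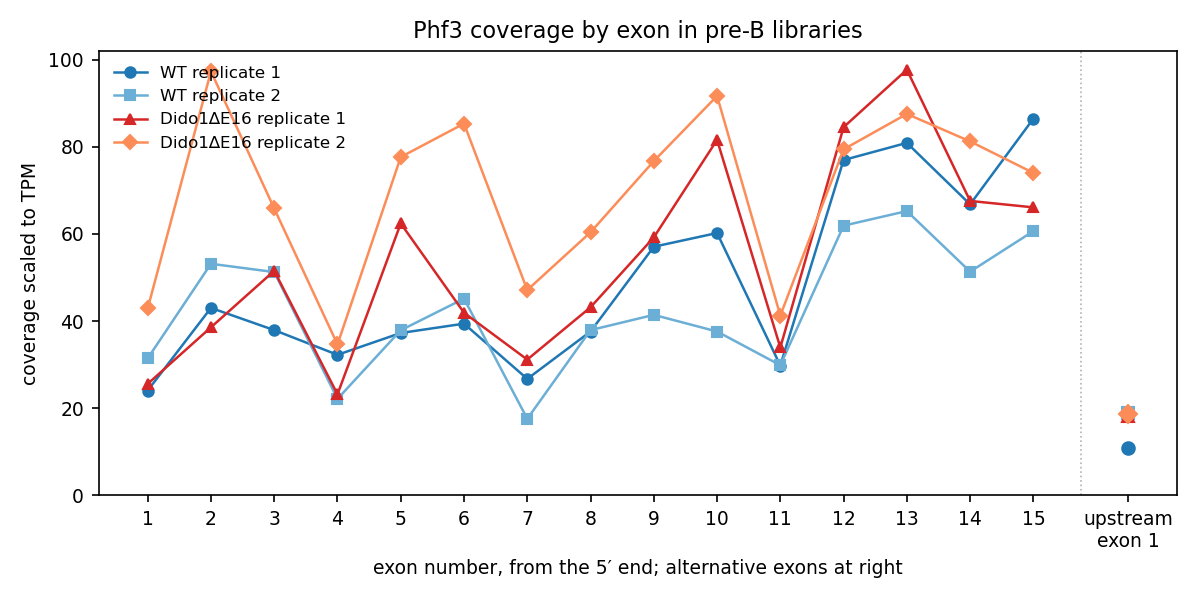
Coverage of the 15 exons of Phf3 transcript uc007ane.1 in the 4 pre-B libraries, with the upstream first exon of the shorter transcripts at the right of the dotted line. The vertical axis is coverage scaled to TPM, and each point is 1 library. Both Dido1∆E16 libraries lie above both WT libraries at 10 exons, as they do at 34.1% of all exons tested. The genotypes overlap at the others, for example at exon 15, where values run from 60.6 to 86.4.

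Phf3 used both of its first exons. The upstream one, at chr1:30873578-30873872, had a coverage of 10.8, 18.9, 18.2 and 18.8. The one whose start lies 10616 bases downstream had 24.1, 31.4, 25.6 and 42.9. Both overlapped between genotypes, and the upstream exon stood at 43.7% to 71.2% of the downstream one. With the highest coverage per exon in place of the sum, it stood at 34.0% and 31.8% in WT. In Dido1∆E16 cells it then stood at 44.4% and 43.7%, without overlap between the groups. The upstream first exon of Dido1, by contrast, was listed at 0 in every library.

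Genes of other proteins that share a SPOC domain or a TFIIS-like fold had log2 fold changes from -1.13 (Tcea2) to 0.21 (Rbm15b). Spen, a large transcriptional repressor, was at 30.0 and 17.3 TPM in WT and 25.1 and 26.7 TPM in Dido1∆E16 cells. The RNA-binding proteins Rbm15 (27.9, 20.9, 27.4 and 21.1 TPM) and Rbm15b (71.5, 69.8, 85.6 and 78.6 TPM), which recruit the m6A methylation machinery, had log2 fold changes of -0.01 and 0.21. The elongation factor TFIIS itself, Tcea1, was at 58.4 and 53.3 TPM in WT and 49.5 and 51.8 TPM in Dido1∆E16 cells. Its paralog Tcea2 was lower in both Dido1∆E16 libraries, at 1.27 and 1.73 TPM against 3.12 and 6.20 TPM (log2 fold change -1.13, SE 0.46, adjusted p = 0.473). Tcea3 was listed at 0 throughout, and Spocd1 was not among the genes with a symbol.

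None of the 5 tested members of this list was called, and none had an unadjusted p under 0.05. The same held for 13 RNA polymerase II subunits, 25 elongation factors and 14 other PHD-finger readers of methylated lysine 4. The median log2 fold changes of the 4 lists were -0.01, -0.03, 0.07 and -0.04, beside 0.07 for all 11830 genes tested, of which 1023 were higher and 359 lower at an unadjusted p under 0.05. Among the polymerase subunits the largest differences were those of Polr2k (-1.35, listed at 0 in Dido1∆E16 replicate 2) and Polr2b (0.27). Among the elongation factors they were those of Supt4a (-0.44), a subunit of DSIF, and Ctr9 (0.41), a subunit of the PAF1 complex. Among the readers they were those of Ing4 (-1.04) and Ing2 (-0.53), subunits of histone acetyltransferase and deacetylase complexes. The log2 fold changes of these 6 genes had adjusted p-values from 0.491 to 0.727.

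The neighbours of the 2 genes were read in the same files. Tcfl5, a basic helix-loop-helix transcription factor gene that starts 15271 bases past the end of Dido1 on the same strand, was listed at 0 in both WT libraries. In Dido1∆E16 replicates 1 and 2 it was listed at 4.02 and 4.25 TPM (unadjusted p = 0.0055, adjusted p = 0.222, not called). With eBayes without a trend its adjusted p was 0.0428, and it was called. The 5 Tcfl5 exons covered in both Dido1∆E16 libraries reached 4.81 to 10.7, but its first exon of 716 bases was listed at 0 in all 4 libraries. Gid8, a subunit of the CTLH ubiquitin ligase transcribed away from the upstream start of Dido1, was at 52.2 and 38.5 TPM in WT and 46.5 and 45.0 TPM in Dido1∆E16 cells. Ptp4a1, a phosphatase gene beside Phf3, was listed at 14.6, 34.3, 20.1 and 0 TPM.

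Over the 4 pre-B libraries, the genes most like Dido1 by Euclidean distance of centred log2(TPM + 1), out of 11830, were P2rx4 (0.041), Jrk (0.046) and Wwc2 (0.072). P2rx4, an ATP-gated ion channel, stood at 10.9 and 11.6 TPM in WT and 20.2 and 22.2 TPM in Dido1∆E16 cells. Those most like Phf3 were Tax1bp1 (0.0093), Coa5 (0.018) and Tmed7 (0.022). Tax1bp1, an autophagy receptor, stood at 289 and 251 TPM in WT and 281 and 323 TPM in Dido1∆E16 cells. With 4 libraries, many genes can share such a pattern.

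In LSK cells, accessible regions had been called per library. The libraries differed in depth, from 10249256 to 52050898 tags, and in the number of MACS2 peaks. As a check of the cells, Kit, Cd34, Flt3 and Meis1 had a promoter peak in all 4 libraries, whereas Ly6a, which encodes Sca-1, had 1 peak in WT replicate 2 only. Gata2, a stem cell transcription factor gene, had 1, 2, 0 and 0 peaks, with a promoter peak in WT replicate 1 alone. Dido1 was given 3, 6, 2 and 3 MACS2 peaks (exact permutation p = 0.667). Phf3 was given 2, 14, 7 and 10 (exact permutation p = 1). With each library reduced to its 13208 highest-scoring peaks, the numbers were 3, 4, 2 and 3 for Dido1 (exact permutation p = 0.667). For Phf3 they were 1, 2, 7 and 8, higher in both Dido1∆E16 libraries (exact permutation p = 0.333). With HOMER peaks the numbers were 4, 8, 3 and 2 for Dido1 and 2, 8, 3 and 1 for Phf3. For Dido1 there were fewer in both Dido1∆E16 libraries (exact permutation p = 0.333). HOMER listed 24700, 68357, 15373 and 23839 peaks in all, and the HOMER counts of the 2 genes were not adjusted for this.

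Dido1 was open at both of its start sites in every library. At the start of its main transcripts (position 180702102) the MACS2 scores were 43, 98, 18 and 39. As scores of different libraries share no scale, they were ranked within each library. This peak outscored 63.1% and 80.7% of WT peaks, and 7.17% and 66.0% of those from Dido1∆E16 cells (exact permutation p = 0.667). At the upstream start (position 180709999), shared with Gid8, scores of 74, 122, 26 and 37 outscored 86.2% and 86.9% of WT peaks and 22.7% and 63.2% of those from Dido1∆E16 cells, without overlap between the groups (exact permutation p = 0.333). Such a rank also depends on how many weaker peaks a library lists. MACS2 peaks numbered 27352 and 57739 in WT against 13208 and 16329 in Dido1∆E16 libraries. Promoters ranked lower in general in Dido1∆E16 cells, and what part the number of peaks had in this was not tested. Over 6026 genes with a promoter peak in all libraries, the median promoter peak outscored 81.3%, 91.5%, 67.9% and 69.9% of the peaks of its library. The Phf3 promoter, with scores of 45, 113, 49 and 38, outscored 65.6%, 84.9%, 60.2% and 64.6% of peaks, without overlap between the groups (exact permutation p = 0.333).

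The upstream Dido1 start had a peak in every LSK library, while its first exon of 90 bases was listed at 0 in the pre-B libraries. The 117 bases between this start and the first exon of Gid8 as GENCODE vM21 places it, at chr2:180710000-180710116, are shown on the Dido1 strand, since the strongest Dido1 promoter peak lies over them. Capitals mark GGGCGG on either strand, where it directly follows its own reverse complement.
Between Dido1 and Gid8: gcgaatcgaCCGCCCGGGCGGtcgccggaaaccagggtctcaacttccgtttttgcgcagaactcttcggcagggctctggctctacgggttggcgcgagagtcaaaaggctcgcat

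The RefSeq table of promoters holds 3 windows for Dido1 and none for Phf3. In the 250 bases before the upstream start there were 33 CpG dinucleotides, more than in 96.0% of 32851 promoters, with 4 matches to GGGCGG and 1 to CCAAT on either strand. Before the main start, which GENCODE vM21 places further upstream than the files do, there were 15 CpG, more than in 72.7% of promoters, with 1 match to each motif. Before another start, at exon 2, there were 2 CpG and no match to either motif. Of all promoters, 32.7% held GGGCGG and 33.8% held CCAAT. None of the Dido1 windows held TATAAA (12.4% of promoters), CCGGAAG (6.91%) or TGACGTCA (1.55%) on either strand.

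Inside Dido1, an intron 6 region at chr2:180678570-180679214 was called at scores of 41 and 93 in WT and of 20 in Dido1∆E16 replicate 2, but not in Dido1∆E16 replicate 1. HOMER called it in both WT libraries and in no library of Dido1∆E16 mice. The authors' lists of differential regions, chosen on these libraries, hold 5231 and 8540 regions. The shorter list holds an interval inside the intron 6 region at chr2:180678774-180678990, with deposited log2 tag counts of 4.90, 4.79, 3.95 and 4.04. The longer list holds chr2:180678646-180679063, with 5.64, 5.61, 4.63 and 4.59. Neither list holds a region over Phf3. Another 2 MACS2 regions, in intron 1, were called in WT replicate 2 only, with scores of 77 and 68. HOMER called chr2:180692523-180693069, over the first of them, in WT replicate 2 and Dido1∆E16 replicate 1. It called chr2:180695299-180695627, over the other, in both WT libraries and no library of Dido1∆E16 mice. This interval joins chr2:180695299-180695542 of WT replicate 2 and chr2:180695477-180695627 of WT replicate 1, which overlap in part. With an overlap of at least 50% required, they were separate regions.

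The highest Dido1 peak lay inside the deleted exon itself, in 1 library. In WT replicate 2, MACS2 called chr2:180660829-180662088, 1260 bases within the coding part of exon 16, at a score of 1153. This was the second highest score of 57739 peaks in that library and the highest of its 2685 exonic peaks, of which the next had 546. No other library, WT replicate 1 included, had a MACS2 or HOMER peak in exon 16. Of the 100 highest peaks of WT replicate 2, 99 overlapped a peak in each of the other 3 libraries, and this one overlapped none. HOMER called nearly the same interval, chr2:180660830-180662079, again only in WT replicate 2.

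The peak begins 495 bases into exon 16 and ends 1487 bases before the stop codon. It holds 1.43 CpG per 100 bases, against 2.16 over exon 16, and has a GC content of 55.3%. Aligned to GRCm38 with minimap2 it matched 1 place only. The middle of the peak, at chr2:180661359-180661558, is shown on the coding strand, with CpG in capitals. What gave the peak, and whether it reflects accessible chromatin, was not tested.
Middle of the exon 16 peak: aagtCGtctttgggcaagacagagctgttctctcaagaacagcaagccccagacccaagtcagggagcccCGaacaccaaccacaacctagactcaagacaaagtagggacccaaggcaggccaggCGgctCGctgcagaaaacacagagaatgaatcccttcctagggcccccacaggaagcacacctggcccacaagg

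**Figure D4:**
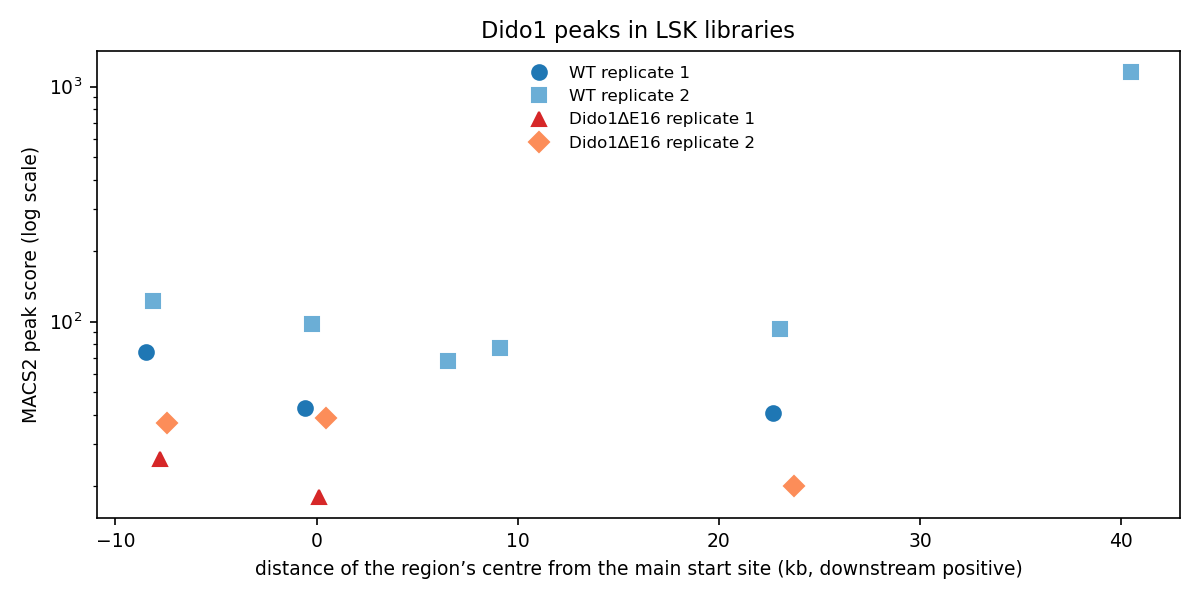
MACS2 score of each Dido1 region, on a log axis, against the distance of its centre from the start of the main transcripts in kb, with downstream positive, in the 4 LSK libraries. Each symbol is 1 library, shifted slightly sideways to avoid overlap, and a missing symbol means that no peak was called. The exon 16 peak of WT replicate 2 stands alone at a score of 1153, while the other regions score between 18 and 122.

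Phf3 had 20 MACS2 regions, of which only the promoter was called in all 4 libraries and 13 were called in 1 library. Distal intergenic regions made up 17 of them, from 80.7 to 714 kb downstream of the upstream start, and carried the symbol as the nearest gene. They numbered 1, 11, 6 and 9 by library. One of them, at chr1:30376600-30376827, was called in both Dido1∆E16 libraries, with scores of 19 and 33, and in neither WT library. The nearest, at chr1:30792911-30793356, had scores of 34, 111 and 59 in WT replicates 1 and 2 and Dido1∆E16 replicate 1. Counted within the gene body and 1 kb upstream, Phf3 had 1, 3, 1 and 1 peaks, and Dido1 had 3, 6, 2 and 3.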

How the data were processed

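Pre-B RNA-seq and LSK ATAC-seq libraries (2 WT and 2 Dido1∆E16 each) were analysed. The authors aligned reads to mm10 with BWA 0.7.15 per the labels, ran StringTie on UCSC known genes, and annotated with ChIPseeker the peaks that MACS2 and HOMER found in each library. BWA-MEM is not a spliced aligner, which can lower coverage beside exon junctions and blur the assignment of reads to isoforms. The deposited StringTie values are TPM, FPKM and coverage without counts. The deposited MACS2 peaks hold a score, HOMER peaks a constant score, and the authors' lists of differential regions hold log2 tag counts. Those lists and the edgeR tables also hold fold changes and p-values, which were not used. The methods of the study give 3 ATAC-seq replicates, and the 2 labelled ones were used.

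Symbols came from the authors' peak annotation (26047 transcripts), from GENCODE vM21 genes sharing at least 50% of exonic bases (30191) or an intron (311), and 7204 had none. Where both gave a symbol, 97.9% matched. Exon coverage was summed over the transcripts that list an exon or, as an alternative, taken at its highest. Log2(value + 1) of features with a mean of at least 1 entered limma 3.58.1 (R 4.3.3, lmFit, eBayes with a trend, Benjamini-Hochberg over all features), without a block. The fit was tested on simulated data. Fold changes on this scale understate changes of low features. Single values used exact two-sided permutation tests over libraries. P-values measure the spread between 2 libraries per group. Regions overlapped from 1 bp. Sequences came from RefSeq GRCm38.p6, with positions counted from 1, and copies were sought with minimap2 2.31-r1302. Python 3.11.15 was used.

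Members and lists were chosen with earlier results of these data known. The genes named were Dido1 and Phf3, all SPOC or TFIIS-domain proteins, the neighbours, 2 members per list with the largest differences, and the 3 genes most like each. One marker of the pre-B list is not reported here.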

Additional observations from a re-analysis of the deposited data

How the results depend on the processing

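Neither gene sum and no transcript of Dido1 or Phf3 was called under any alternative (pseudocount 0.1, no filter, median-centring, eBayes without a trend, FPKM, stricter thresholds, the replicate number as a block, or without a library). The Dido1 log2 fold change stayed between 0.80 and 0.94, with adjusted p-values from 0.146 to 0.665. Of their exons 1 was called on coverage as deposited. With the highest coverage over transcripts in place of the sum, the median log2 fold change of Dido1 exons was 1.01 and the difference over exons 2 to 14 was 58.9, against 92.9. With 2 libraries per group, only large differences can pass. Same-numbered libraries correlated by 0.048 in their deviations from the group means, and the numbers were not taken as pairs. In both genotypes, however, replicate 2 had the lower depth, and whether the numbers mark a technical pairing was not tested. With the replicate number as a block, the Dido1 log2 fold change was 0.89 (adjusted p = 0.374), and 0 genes, 0 transcripts and 65 exons were called in all. Counts of all calls moved widely. The 6 genes became 118 without a trend and 0 with a pseudocount of 0.1, no filter, stricter thresholds or any library left out (0 to 0). The 25 transcripts became 97 without a trend, 4 with a pseudocount of 0.1, 3 without a filter, 0 with stricter thresholds and 0 to 0 without a library. The 33 exons became 62 after median-centring, 474 on coverage as deposited, and 0 without a trend, with a pseudocount of 0.1, without a filter, with stricter thresholds or without a library (0 to 0). The cause was not tested.

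No value that changed sign had been called. Leaving out a library left 1 in its group, which is assumed to vary like the others. With a pseudocount of 0.1 the log2 fold change of uc008oju.2 became 0.054 and that of the exon 6 extension 0.14. After median-centring Phf3 exon 1 became -0.022 and Gid8 -0.055. Without a library, log2 fold changes ranged from -1.60 to 0.16 for uc007anf.1, -0.029 to 0.72 for the upstream Phf3 exon, -0.10 to 0.62 for Phf3 exon 1, -0.30 to 0.20 for Phf3 exon 15, -0.19 to 0.24 for Gid8, -0.20 to 0.56 for Spen and -0.21 to 0.19 for Rbm15. The difference in the share of the exon 15 extension relative to exons 2 to 14 ranged from -4.34 to 5.85 percentage points. Regions called in every library of one genotype and none of the other numbered 1 with MACS2, 2 with HOMER, and 3 to 12 without a library. The difference in Phf3 peaks per library, 0.5 by symbol, was 6 with the same number of best-scoring peaks, -3 with HOMER, -1 within the gene body, and ranged from -5.5 to 6.5 without a library.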
